A study of Mus musculus with 70 samples.

Results

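The subject is a set of 9 genes that mark microglia, the resident macrophages of the brain: Cx3cr1, P2ry12, Tmem119, Aif1, Csf1r, C1qa, C1qb, C1qc and Sall1. They were chosen by name, and all 9 were found among the 50789 gene identifiers of the raw count table. The table holds 70 RNA-seq libraries from mice, made from whole tissue: brain (cortex or cerebellum) of 12-week-old mice, and lung taken on postnatal day 6. Each tissue came from mice labelled Cic-S-KO, mice labelled Cic-L-KO and WT mice, with 8 libraries per group, or 7 for either brain region of the Cic-S-KO. Cic encodes Capicua, a transcriptional repressor with a short and a long isoform, for which the 2 knockouts are named. The WT mice were littermates of both lines pooled, and the labels do not say from which line each came. Allele design and strain are not given in the sources used here.

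Microglia live on signals through the receptor Csf1r, sense neurons through the fractalkine receptor Cx3cr1 and detect nucleotides released by damaged cells through P2ry12. Sall1 is the transcription factor that sets them apart from other macrophages, Tmem119 is a transmembrane protein used as their surface marker, and Aif1 (the protein Iba1) binds actin. C1qa, C1qb and C1qc encode the chains of C1q, which starts the classical complement cascade and tags synapses for removal during development. Csf1r, Cx3cr1, Aif1 and the C1q genes are also made by macrophages and monocytes of other organs, so the lung serves as a contrast with myeloid cells but no microglia. In RNA from whole tissue, fewer cells of a type and less RNA per cell cannot be told apart.

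Total counts ranged from 17798655 to 35523037 per library. The mitochondrial share was 1.53% to 1.79% in lung, 4.62% to 6.40% in cortex and 4.25% to 5.93% in cerebellum. Neuron markers separated brain from lung. The 7 neuron genes summed to between 4723 and 8051 CPM (counts scaled to the size of the library) in the brain libraries and to between 41.4 and 86.8 in lung. Their sums overlapped between cortex and cerebellum, so they do not check the labels of these regions. All lung libraries were of batch 1 and all brain libraries of batch 2, so organ, age and batch cannot be told apart, and no test was made between lung and brain. Cic itself averaged 162 ± 8.62 CPM in WT cortex, 251 ± 7.64 in Cic-S-KO cortex and 298 ± 17.0 in Cic-L-KO cortex (SD, n = 8, 7 and 8). A gene total of this kind adds both isoforms and does not check the knockout labels. Cerebellum WT replicate 1 was high for both C1qa and Sall1. Genotype results that rest on it are given without it as well, but the split into male and female libraries is not. Libraries that stood apart for 1 gene are given at the end.

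The 9 genes differed in where they were expressed. Per kilobase of exon, the level in WT cortex was highest for C1qa (40.7 CPM per kilobase) and C1qb (33.5), followed by Csf1r (18.3), C1qc (17.9), P2ry12 (16.8), Cx3cr1 (13.7) and Tmem119 (11.5). Sall1 (5.13) and Aif1 (2.69) were lowest there. In WT lung the highest levels per kilobase were those of Tmem119 (38.1), C1qa (21.3), C1qb (14.9) and Csf1r (14.6), whereas P2ry12 stood at 1.09 and Sall1 at 0.11.

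P2ry12 and Sall1 followed the brain. P2ry12 measured 37.8, 41.8 and 50.5 CPM (lowest, median, highest of 8) in WT cortex, 9.21, 10.9 and 13.7 in WT cerebellum, and 1.74, 2.88 and 3.61 in WT lung. Sall1 measured 22.7, 27.6 and 31.8 CPM in WT cortex, 8.77, 10.04 and 15.5 in WT cerebellum, and 0.396, 0.570 and 0.739 in WT lung. For both genes the 3 tissues did not overlap in any genotype, in the order cortex, cerebellum, lung. Sall1 rested on 2 to 36 counts per lung library, so its lung values are imprecise.

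Tmem119 had the opposite order at its top. It measured 80.5, 86.6 and 99.4 CPM in WT lung, 22.3, 27.3 and 29.8 in WT cortex, and 6.15, 8.58 and 11.03 in WT cerebellum. Every lung library, of any genotype, lay above every cortex library, and every cortex library lay above every cerebellum library. In these libraries, this marker of microglia thus had a higher CPM in lung than in either brain region. CPM was scaled within each tissue, and age and batch differ along with organ.

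The remaining genes were shared between lung and brain. Cx3cr1 averaged 61.9 ± 9.01 CPM in WT cortex, 23.2 ± 4.95 in WT lung and 17.1 ± 3.48 in WT cerebellum (SD, n = 8 each), and its lung and cerebellum ranges overlapped. Csf1r averaged 106 ± 10.8, 84.3 ± 10.9 and 33.9 ± 3.37 in the same order, with cerebellum below every lung and cortex library. Aif1 was scarce at 4.13 ± 0.687, 3.88 ± 0.953 and 1.44 ± 0.381. For C1qa, C1qb and C1qc, WT lung (22.1 ± 3.37, 16.2 ± 3.52 and 16.4 ± 1.95) overlapped WT cerebellum (19.3 ± 2.53, 14.8 ± 1.55 and 13.7 ± 1.799) and lay below WT cortex (42.3 ± 4.29, 36.5 ± 3.63 and 34.6 ± 3.29). Within a tissue, the ranges of genotypes next to each other in the order of means overlapped, with 2 exceptions: C1qc between WT and Cic-L-KO lung, and C1qa between WT and Cic-L-KO cortex. The share of all genes whose groups did not overlap was not computed, here or below. The C1q levels of both knockout lungs overlapped those of cortex.

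**Figure D1:**
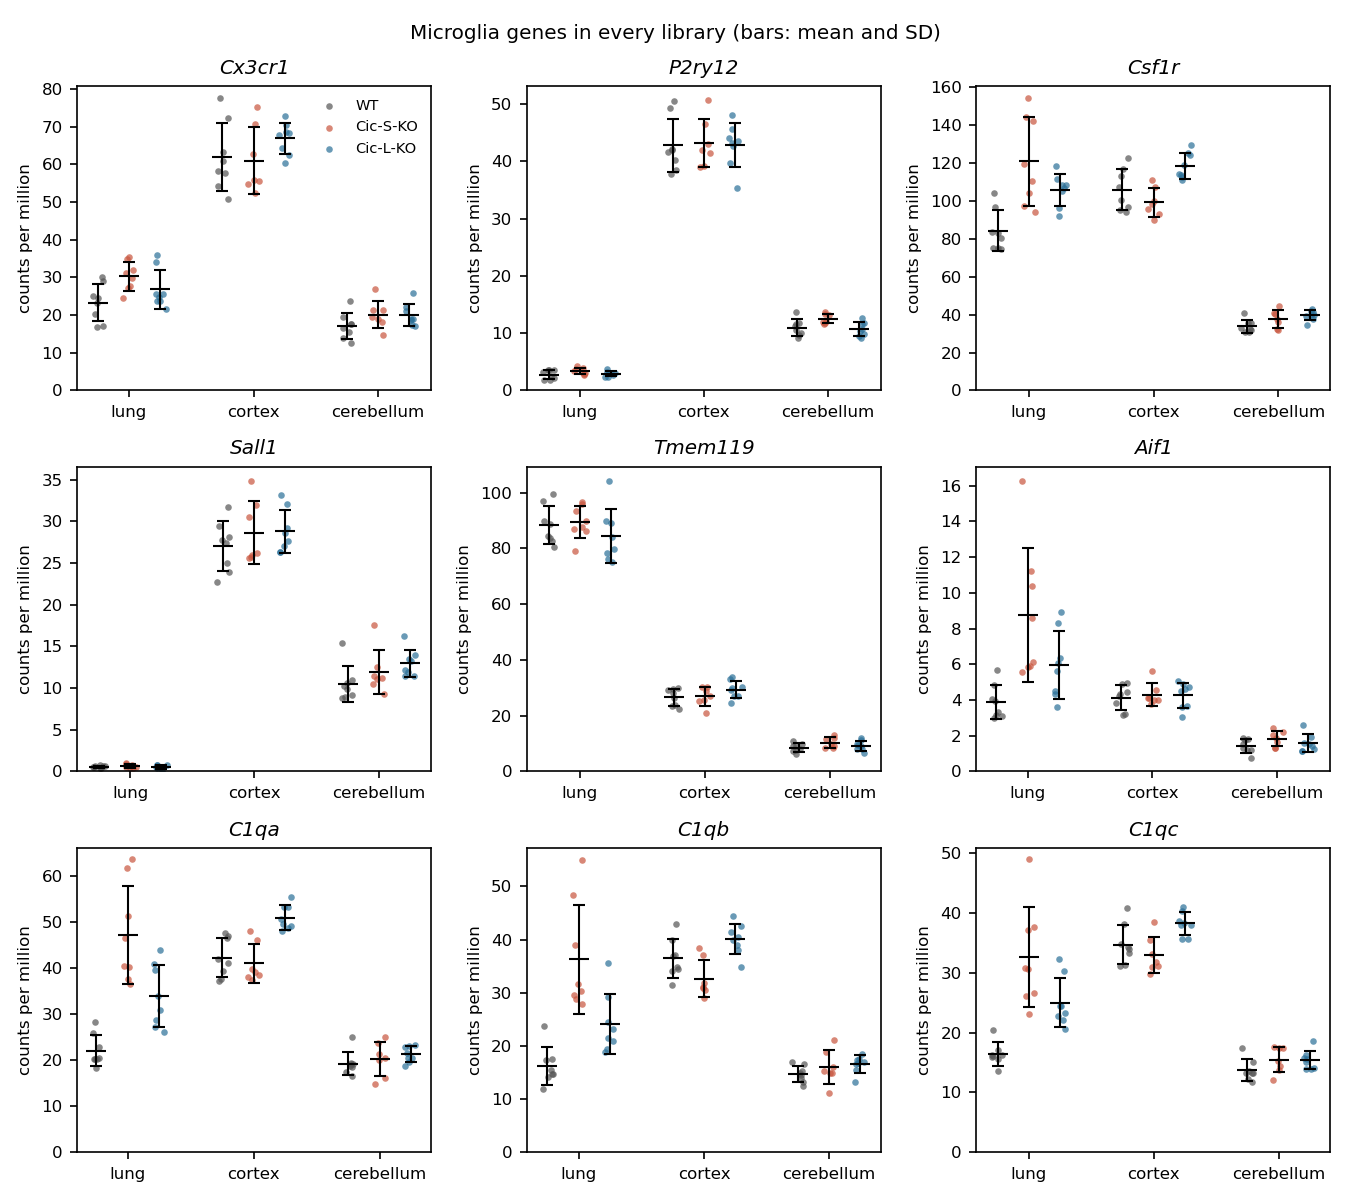
CPM (linear axis from 0) of each of the 9 genes in every library, grouped by tissue and coloured by genotype; points are libraries, bars the mean and SD (n = 8, or 7 for Cic-S-KO cortex and cerebellum). Tmem119 is highest in lung, P2ry12 and Sall1 are near 0 there, and the C1q genes in lung lie above WT in the Cic-S-KO libraries.

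Some of these counts could include reads of other genes. P2ry12 (chromosome 3, 59216272 to 59262871, GRCm38) lies inside Med12l on the other strand, the annotated span of Cx3cr1 holds several further genes, and the 3′ end of Csf1r overlaps Hmgxb3 on the other strand. Whether the counting used strand is not given in the sources used here, so reads of these pairs cannot be told apart.

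The comparison of WT cortex with WT cerebellum asks how the 2 brain regions differ in these genes without any knockout. All 9 genes were higher in cortex, against 35.4% of the 18032 genes tested that were higher (edgeR quasi-likelihood test, Benjamini-Hochberg adjusted p under 0.05, both regions scaled together). P2ry12 showed the largest difference: 38.9, 43.2 and 52.1 CPM in cortex and 8.94, 10.6 and 13.4 in cerebellum (lowest, median, highest), a log2 fold change of 2.05 ± 0.07 (SE; adjusted p = 4.18e-30). C1qa had the smallest, with 38.5, 42.8 and 49.1 CPM in cortex and 16.1, 18.5 and 24.4 in cerebellum, a log2 fold change of 1.22 ± 0.08 (adjusted p = 1.58e-19). The 2 regions did not overlap for either gene.

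The median over the 9 genes was 1.60. The 3 C1q genes (1.22, 1.39 and 1.42) and Sall1 (1.45) stood at the low end and Csf1r (1.73), Cx3cr1 (1.94) and P2ry12 at the high end. Of 26 further microglia genes tested, 25 were higher in cortex, with a median log2 fold change of 1.57. Fcrls, an Fc receptor-like gene of microglia, was higher by 2.51 ± 0.096 and Siglech, a sialic acid receptor, by 2.13 ± 0.096. Of 8 ligands and partners of the receptors, 6 were higher and 1 lower (median 0.80). Cx3cl1, the neuronal ligand of Cx3cr1, was higher by 3.80 ± 0.079 and Il34, a ligand of Csf1r made by neurons, by 3.36 ± 0.094. Of 10 genes of the macrophages at the brain's borders, 3 were higher and 7 did not pass. All 5 choroid plexus genes were lower in cortex (median -2.74), and their part in the result was not tested.

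In the lung, the C1q genes rose in both knockouts and most in the Cic-S-KO. The 3 genes sit side by side on chromosome 4, all on the minus strand, within 18.7 kb (136880129 to 136898803). Sequences upstream of their starts are shown because the genes moved together. RefSeq windows (GRCm38.p6) were at hand for C1qb and C1qc of the trio, and the 250 bases before each start are printed 5′ to 3′ on the gene's strand. They lie at chr4:136886201-136886450 for C1qb and chr4:136892915-136893164 for C1qc, both on the minus strand. Capitals mark a match to the reverse complement of GAGGAAGT, a core bound by the myeloid factor PU.1.
C1qb: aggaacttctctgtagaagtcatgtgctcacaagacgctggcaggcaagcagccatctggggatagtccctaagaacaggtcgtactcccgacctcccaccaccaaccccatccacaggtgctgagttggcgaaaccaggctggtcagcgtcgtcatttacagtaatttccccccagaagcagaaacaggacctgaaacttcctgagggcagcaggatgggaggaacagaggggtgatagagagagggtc
C1qc: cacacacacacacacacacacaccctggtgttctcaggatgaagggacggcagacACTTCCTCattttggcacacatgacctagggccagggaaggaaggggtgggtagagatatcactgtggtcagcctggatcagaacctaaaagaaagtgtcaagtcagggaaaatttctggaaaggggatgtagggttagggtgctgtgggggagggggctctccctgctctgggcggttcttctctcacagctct

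The match begins 195 bases before the C1qc start. Among 32851 promoter windows of 300 bases searched on both strands, 3.20% held this octamer. The 2 octamers bound by Capicua, TGAATGAA (in 1.30% of the windows) and TGAATGGA (in 1.21%), did not occur in the 8 windows at hand for Cx3cr1, P2ry12, Aif1, C1qb, C1qc and Sall1, which says only that these letters were not there. Tmem119, C1qa and Csf1r had no window in the table.

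C1qa measured 18.4, 20.4 and 28.4 CPM in WT lung (lowest, median, highest of 8), 26.2, 32.5 and 44.0 in Cic-L-KO lung and 36.5, 43.6 and 63.7 in Cic-S-KO lung. Every Cic-S-KO library lay above every WT library, and 6 of the 8 Cic-L-KO libraries did. Against WT, the Cic-S-KO had a log2 fold change of 1.10 ± 0.13 (SE; edgeR adjusted p = 1.88e-05) and the Cic-L-KO one of 0.62 ± 0.13 (adjusted p = 0.00677).

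C1qb measured 12.0, 15.2 and 23.8 CPM in WT lung, 18.9, 22.3 and 35.6 in Cic-L-KO lung and 27.8, 31.0 and 55.0 in Cic-S-KO lung. The Cic-S-KO libraries again did not overlap WT, and the log2 fold change was 1.16 ± 0.16 (adjusted p = 5.60e-05). In the Cic-L-KO it was 0.57 ± 0.16 (adjusted p = 0.0388), with 3 of 8 libraries above all of WT.

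C1qc measured 13.5, 16.2 and 20.5 CPM in WT lung, 20.6, 23.8 and 32.2 in Cic-L-KO lung and 23.1, 30.7 and 48.9 in Cic-S-KO lung. Neither knockout overlapped WT. The log2 fold changes were 0.99 ± 0.12 in the Cic-S-KO (adjusted p = 1.96e-05) and 0.61 ± 0.12 in the Cic-L-KO (adjusted p = 0.00447).

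Among the other genes of the set, 3 rose in the Cic-S-KO lung. Aif1 went from 2.9996, 3.63 and 5.67 CPM in WT to 5.56, 7.38 and 16.3 in the Cic-S-KO, with 7 of 8 knockout libraries above all of WT (log2 fold change 1.17 ± 0.22, adjusted p = 0.00095). Csf1r went from 74.8, 81.9 and 104.3 CPM to 94.0, 115 and 155, with 5 of 8 libraries above all of WT (0.52 ± 0.09, adjusted p = 0.000697). Cx3cr1 measured 16.8, 23.9 and 30.0 CPM in WT and 24.5, 30.5 and 35.5 in the Cic-S-KO (0.38 ± 0.12, adjusted p = 0.0309). That last call was lost without the low-count filter (adjusted p = 0.0866) and in 8 of 24 fits that each left out 1 library (WT replicate 4, 5, 6 or 8, or Cic-S-KO replicate 4, 5, 6 or 7; adjusted p up to 0.0693).

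Tmem119, P2ry12 and Sall1 did not pass in the Cic-S-KO lung. Tmem119 measured 79.1, 88.8 and 96.7 CPM there against 80.5, 86.6 and 99.4 in WT (log2 fold change 0.02, 95% interval -0.10 to 0.14, adjusted p = 0.865). P2ry12 (0.29, interval -0.03 to 0.61) and Sall1 (0.24, interval -0.31 to 0.79) were too low in lung to bound a change closely. In all, 6 of the 9 genes rose, against 9.99% of the 16695 genes tested in this comparison. The median log2 fold change was 0.52 over the 9 genes and -0.001 over all genes tested.

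In the Cic-L-KO lung, 4 of the 9 genes rose, against 2.62% of all genes: the 3 C1q genes and Csf1r. Csf1r measured 91.9, 108 and 118 CPM, with 6 of 8 libraries above all of WT, a log2 fold change of 0.33 ± 0.09 (adjusted p = 0.0418). The Csf1r call was lost in 13 of 24 fits that left out 1 library (WT replicate 1, 2, 4, 5, 6 or 8, Cic-S-KO replicate 7, or Cic-L-KO replicate 1, 3, 4, 6, 7 or 8; adjusted p up to 0.0989). The C1qb call was lost in 11 (WT replicate 1, 2, 4, 5, 6 or 8, or Cic-L-KO replicate 2, 3, 5, 6 or 8; adjusted p up to 0.0874). Both were also lost without the low-count filter and with GC adjustment (adjusted p up to 0.116). C1qa and C1qc passed in all 24. Aif1 had an estimate of 0.62 ± 0.22 and did not pass (adjusted p = 0.111). Both knockouts were compared with the same WT libraries.

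Set directly against each other, the 2 knockouts differed in the C1q genes, which were higher in the Cic-S-KO lung. The log2 differences were 0.48 ± 0.13 for C1qa (adjusted p = 0.016), 0.59 ± 0.16 for C1qb (adjusted p = 0.0161) and 0.38 ± 0.12 for C1qc (adjusted p = 0.0382). These 3 of 9 compare with 7.31% of all genes that were higher in the Cic-S-KO. The C1qc call was lost in 9 of 24 fits that left out 1 library (Cic-S-KO replicate 4, 5 or 6, or Cic-L-KO replicate 1, 2, 4, 5, 7 or 8; adjusted p up to 0.101). It was also lost without the low-count filter (adjusted p = 0.096) and when the 2 knockouts were fitted without WT (adjusted p = 0.0796). Per kilobase, C1qa stood at 2.51 ± 0.235 times C1qc in WT lung, 2.52 ± 0.273 times in Cic-L-KO lung and 2.72 ± 0.253 times in Cic-S-KO lung (SD, n = 8 each). The ratio of C1qb to C1qc was 1.74 ± 0.179, 1.70 ± 0.160 and 1.97 ± 0.170 in the same order. No test was made of these ratios. In WT cortex the ratio of C1qa to C1qc was 2.27 ± 0.125 and in WT cerebellum 2.62 ± 0.210.

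**Figure D2:**
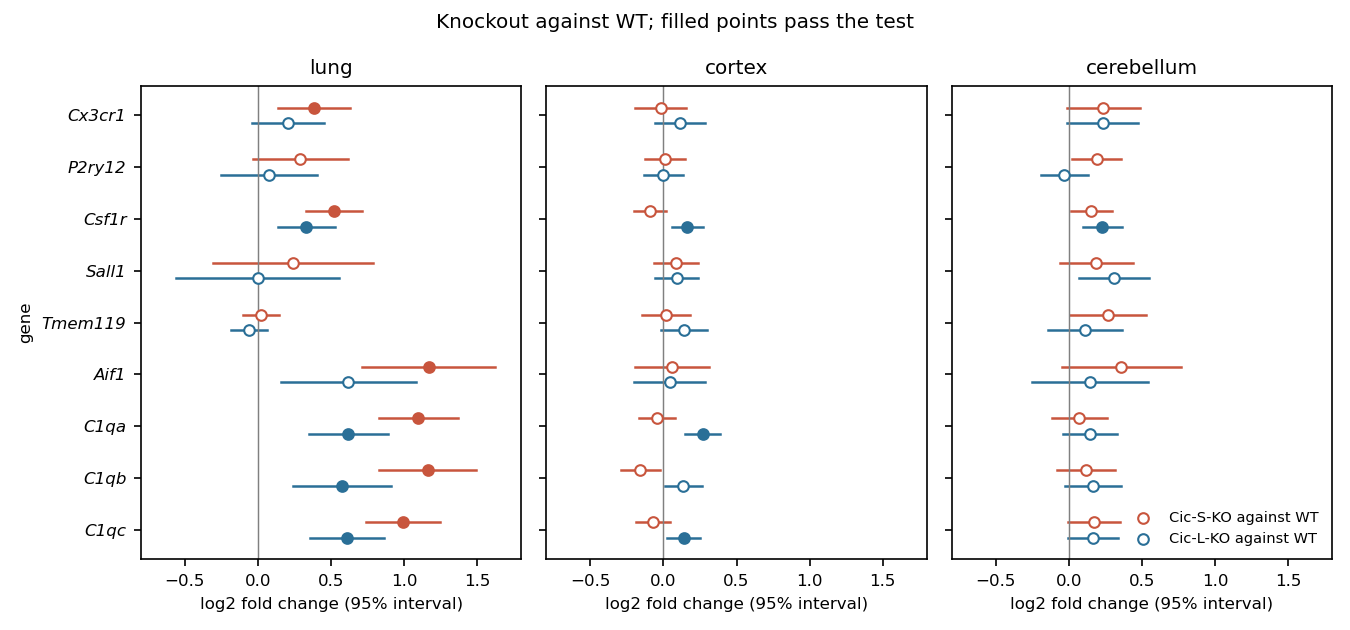
Log2 fold change of each knockout against WT (x axis, log2 scale; bars, 95% intervals) for the 9 genes in lung, cortex and cerebellum; filled points passed at adjusted p under 0.05. The Cic-S-KO lung has the largest values, 0.99 to 1.17 for the C1q genes and Aif1, and no Cic-S-KO point is filled in cortex or cerebellum.

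Markers of several myeloid cells moved in the same lungs. In the Cic-S-KO lung, 9.99% of all genes were higher and 5.73% lower. Of 25 further microglia genes tested, 20 were higher in the Cic-S-KO lung (median 0.71), among them Tyrobp, a signalling adaptor of myeloid receptors (0.87 ± 0.135), and Ly86 (0.73 ± 0.094), a partner of a toll-like receptor family member. Of 18 genes of activated microglia, 16 were higher (median 0.81), such as the lysosomal glycoprotein Cd68 (1.09 ± 0.165) and Apoe (1.00 ± 0.163). All 9 monocyte and granulocyte genes were higher (median 1.48), and their summed level was 77.8 to 200.5 CPM in WT, 90.002 to 230.6 in Cic-L-KO and 137.6 to 392.8 in Cic-S-KO. Cd177 of neutrophils was higher by 1.91 ± 0.249 and Ccr2, the chemokine receptor of monocytes, by 0.69 ± 0.130.

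Lung macrophage genes summed to 241 to 342 CPM in WT and to 307 to 982 in the Cic-S-KO, and 5 of 11 were higher, including the chitinase-like Chil3 (4.004 ± 0.677). The scavenger receptors Mrc1 (0.70 ± 0.087) and Siglec1 (1.05 ± 0.164), which mark tissue macrophages, were among 6 of 10 border macrophage genes that were higher, while 1 was lower. Of 12 other complement genes, 8 were higher and 1 lower, with C4b at 1.44 ± 0.258 and the protease genes C1ra at 0.50 ± 0.075 and C1s1 at 0.37 ± 0.065. The part of these cells in the rise of the C1q genes, Aif1, Csf1r and Cx3cr1 was not tested. In the Cic-L-KO lung, 2 of 25 further microglia genes were higher, Ly86 (0.39 ± 0.094) and Vsir (0.22 ± 0.065), against 2.62% of all genes. The 9 monocyte and granulocyte genes (median 0.52) did not pass there. Directly compared, 15 of the 25 further microglia genes were higher in the Cic-S-KO than in the Cic-L-KO lung, against 7.31% of all genes.

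**Figure D3:**
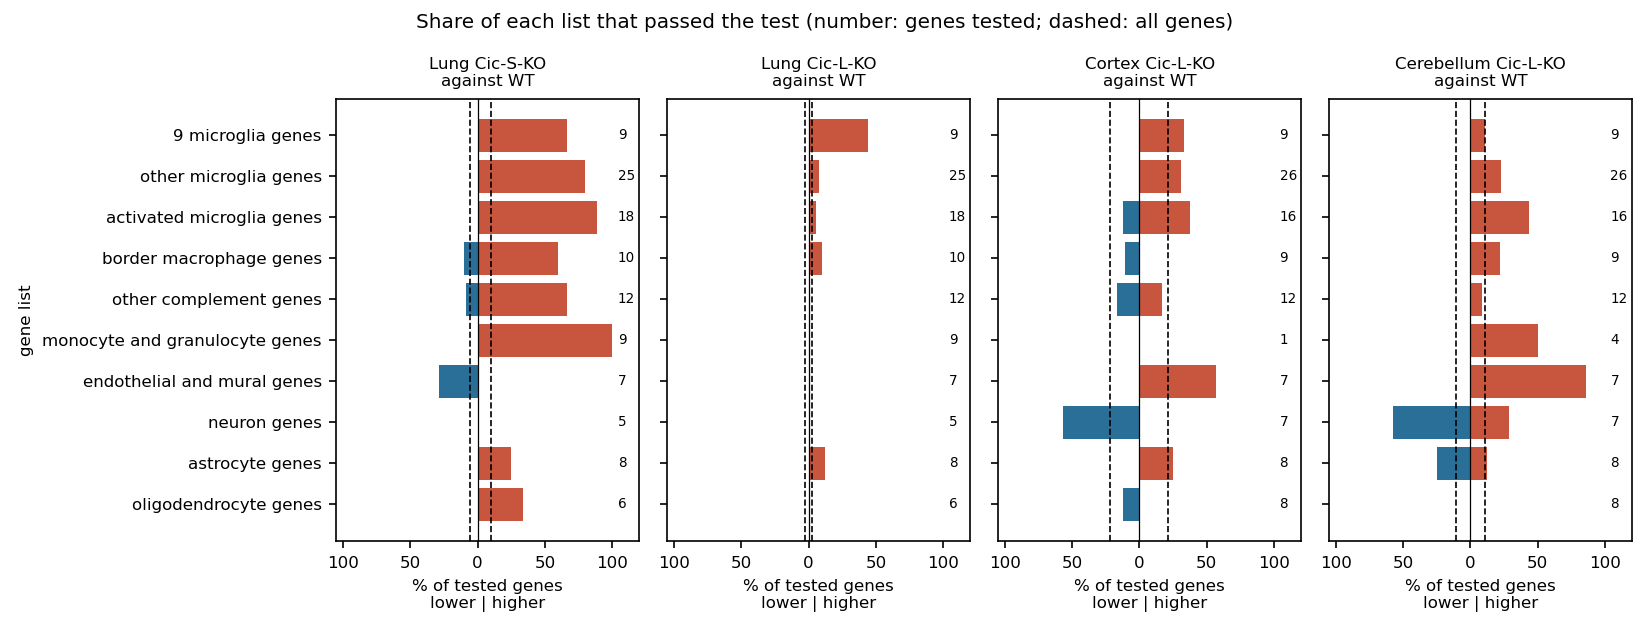
Percent of the tested genes of each list that were higher (right) or lower (left) in 4 knockout comparisons against WT; the number beside a bar is the number of genes tested, and dashed lines are the same shares over all genes. In the Cic-S-KO lung, 6 of 9 microglia genes and all 9 monocyte and granulocyte genes were higher; in the Cic-L-KO cerebellum, 6 of 7 endothelial and mural genes were.

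In the cortex, 3 of the 9 genes rose in the Cic-L-KO, by small amounts, against 21.4% of all genes that were higher. C1qa measured 37.2, 41.5 and 47.8 CPM in WT cortex, 37.6, 39.2 and 48.2 in the Cic-S-KO and 48.1, 50.1 and 55.5 in the Cic-L-KO. Every Cic-L-KO library lay above every WT library, and the log2 fold change was 0.27 ± 0.06 (adjusted p = 0.000376). Csf1r measured 94.0, 104.1 and 123 CPM in WT and 111, 117 and 130 in the Cic-L-KO, with overlap (0.16 ± 0.05, adjusted p = 0.0128).

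C1qc measured 31.0, 34.1 and 40.7 CPM in WT and 35.7, 38.2 and 40.9 in the Cic-L-KO (0.14 ± 0.06, adjusted p = 0.0412). This last call was lost when GC content was adjusted for (0.08, adjusted p = 0.251) and in 7 of 23 fits that left out 1 library (WT replicate 3, 6 or 7, or Cic-L-KO replicate 1, 2, 3 or 8; adjusted p up to 0.0742). C1qb had nearly the same estimate (0.14 ± 0.06, adjusted p = 0.0738) and did not pass, though it did with sex as a covariate (adjusted p = 0.0468) and with WT and Cic-L-KO fitted alone (adjusted p = 0.0497). Of all 16974 genes tested in this comparison, 43.2% changed in either direction. The median was 0.14 over the 9 genes and 0.01 over all genes.

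P2ry12, Tmem119, Sall1 and Cx3cr1 did not pass in the Cic-L-KO cortex over all libraries. P2ry12 measured 35.4, 43.4 and 48.1 CPM there against 37.8, 41.8 and 50.5 in WT (log2 fold change 0.00, interval -0.13 to 0.13). For Tmem119 the estimate was 0.14 (interval -0.02 to 0.30), for Sall1 0.09 (interval -0.06 to 0.24) and for Cx3cr1 0.11 (interval -0.06 to 0.28). Libraries were also split by sex, told by counts of Y-linked genes. Tmem119 passed among male libraries (0.25 ± 0.0852, edgeR adjusted p = 0.0323), where 15.8% of all genes were higher. Cx3cr1 passed among female libraries (0.21 ± 0.0689, adjusted p = 0.0281), where 12% of all genes were higher. The male and female effects were not shown to differ for either gene (interaction of genotype and sex, edgeR adjusted p = 0.833 and 0.818).

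In the Cic-S-KO cortex, edgeR called 0 of the 9 genes against WT and so did DESeq2, where 6.53% of all genes were called. At an unadjusted p under 0.05 there was 1 of the 9, against 22.5% of all genes. It was C1qb, with 31.5, 35.8 and 43.0 CPM in WT and 29.0, 31.2 and 38.3 in the Cic-S-KO (-0.16 ± 0.06, adjusted p = 0.134). Between the knockouts, 4 genes were lower in the Cic-S-KO than in the Cic-L-KO cortex, against 16.5% of all genes that were lower. They were C1qa (-0.31 ± 0.06, adjusted p = 0.000141), C1qb (-0.29 ± 0.06, adjusted p = 0.000579), Csf1r (-0.26 ± 0.05, adjusted p = 0.000503) and C1qc (-0.21 ± 0.06, adjusted p = 0.00452). All 4 passed in each of the 23 fits that left out 1 library. Split by sex, the same 4 passed among female libraries, where 17.5% of all genes were called in either direction. Among male libraries 0 of the 9 passed, against 27.3% of all genes. The C1qa difference among males was -0.23 ± 0.0891 (edgeR adjusted p = 0.0586). For C1qa, 6 of 7 Cic-S-KO libraries lay below every Cic-L-KO library. In the lung the same C1q genes differed between the knockouts in the other direction.

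In the Cic-L-KO cortex, 21.4% of all genes were higher and 21.9% lower. Of 26 further microglia genes, 8 were higher there (median 0.16). Among them were Tgfbr1, a receptor for the TGF-beta signal that maintains microglia (0.32 ± 0.059), Laptm5 (0.28 ± 0.056) and the protease gene Ctss (0.22 ± 0.054). Of 16 genes of activated microglia, 6 were higher and 2 lower (median 0.07). Of 12 other complement genes, 2 were higher and 2 lower (median 0.01). Of 8 ligands and partners, 1 was higher and 2 were lower, and 6 of the 8 estimates were positive (median 0.11). Cx3cl1 was among the lower (-0.18 ± 0.046). Other cell types moved too. Of 7 endothelial and mural genes, 4 were higher, among them Kdr, a receptor for vascular endothelial growth factor (0.80 ± 0.129). Of 7 neuron genes, 4 were lower, among them Syt1 (-0.49 ± 0.034) and Snap25 (-0.49 ± 0.043) of synaptic vesicle release.

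Choroid plexus genes summed to 21.3 to 589 CPM in WT cortex (median 28.8), 9.43 to 619 in the Cic-S-KO (median 19.5) and 18.7 to 1297 in the Cic-L-KO (median 409), a wide range within each group. Monocyte and granulocyte genes were close to absent, at 0.294 to 1.34 CPM summed over 9 genes in the Cic-L-KO and 0.381 to 1.59 in WT cortex. Border macrophage genes summed to 30.7 to 41.1 CPM in the Cic-L-KO and 27.7 to 41.3 in WT. The part of the neuronal, vascular and choroid plexus differences in the microglia values was not tested.

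In the cerebellum, Csf1r was the gene that passed. It measured 30.7, 32.7 and 40.9 CPM in WT, 31.7, 37.5 and 44.7 in the Cic-S-KO and 34.6, 39.9 and 43.0 in the Cic-L-KO. The Cic-L-KO rise was 0.23 ± 0.07 (adjusted p = 0.0124), with 3 of 8 libraries above all of WT. This 1 of 9 compares with 10.9% of the 16643 genes tested that were higher, a share close to that of the 9 genes. Sall1 measured 8.77, 10.04 and 15.5 CPM in WT and 11.4, 12.7 and 16.3 in the Cic-L-KO (0.31 ± 0.12, adjusted p = 0.0612). The estimates were positive for 8 of the 9 genes (median 0.17).

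Cerebellum WT replicate 1 decided several of these calls. It was the highest WT library for C1qa (25.1 CPM) and Sall1 (15.5 CPM). Without it, 4 of the 9 genes passed in the Cic-L-KO cerebellum, against 12.2% of all genes that were higher in that fit: Csf1r, Sall1 (adjusted p = 0.0048), Cx3cr1 (adjusted p = 0.0385) and C1qc (adjusted p = 0.0416). Without Cic-S-KO replicate 6, Csf1r and Sall1 passed, against 12.0% of all genes.

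In the Cic-S-KO cerebellum, edgeR called 0 of the 9 genes against WT and so did DESeq2, where 8.23% of all genes were called. All 9 estimates were positive (median 0.19), and 3 had an unadjusted p under 0.05, against 24.3% of all genes. Without WT replicate 1, Csf1r passed (adjusted p = 0.0475). Of 16 genes of activated microglia, 5 were higher and 0 lower in the Cic-S-KO than in WT, against 4.34% of all genes that were higher. Of 26 further microglia genes 0 passed (median 0.13). Of 7 neuron genes, 2 were higher and 5 lower. Between the 2 knockouts edgeR called 0 of the 9 genes, against 12.4% of all genes, and DESeq2 called 1. At an unadjusted p under 0.05 edgeR had 1 of the 9, against 26.2% of all genes. That gene was P2ry12, which measured 11.7, 12.1 and 13.7 CPM in the Cic-S-KO and 9.10, 10.6 and 12.7 in the Cic-L-KO (log2 difference 0.22 ± 0.08, edgeR adjusted p = 0.0699).

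Other genes moved in the Cic-L-KO cerebellum, where 10.9% of all genes were higher and 10.6% lower. Of 26 further microglia genes, 6 were higher (median 0.21), among them Olfml3 (0.47 ± 0.095) and Fcrls (0.38 ± 0.109), and of 16 genes of activated microglia 7 were higher, such as Gpnmb (0.52 ± 0.112) and Axl (0.21 ± 0.052), a receptor for apoptotic cells. Of 8 ligands and partners, 3 were higher and 1 was lower (median 0.23). Tgfb1 (0.48 ± 0.094) and Cx3cl1 (0.46 ± 0.089) were among the higher. Of 7 endothelial and mural genes, 6 were higher, and their summed level was 195 to 234 CPM in WT and 262 to 292 in the Cic-L-KO. Border macrophage genes summed to 18.1 to 24.05 CPM in WT and 24.9 to 31.1 in the Cic-L-KO, with Stab1 (0.47 ± 0.080) and Mrc1 (0.44 ± 0.114) higher. Of 4 monocyte and granulocyte genes tested, 2 were higher, Ccr2 (1.44 ± 0.384) and Ngp (1.33 ± 0.453), and the median was 1.14. Their level summed over 9 genes was 0.62 to 3.90 CPM in WT and 1.68 to 6.74 in the Cic-L-KO. The part of the vascular, monocyte and border macrophage differences in the Csf1r result was not tested.

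The test of whether a knockout effect differed between cortex and cerebellum called 0 of the 9 genes in both knockouts, with edgeR and with DESeq2. For the Cic-S-KO effect 4.50% of all 18032 genes were called, and all 9 estimates were negative, meaning lower in cortex (median -0.25), with 3 at an unadjusted p under 0.05, against 19.3% of all genes. For the Cic-L-KO effect 23% of all genes were called, and 0 of the 9 were at an unadjusted p under 0.05 (median -0.03), against 34.4% of all genes. Without cerebellum WT replicate 1, Csf1r passed in the Cic-S-KO (adjusted p = 0.0386). The larger C1qa value in Cic-L-KO cortex (0.27) than in Cic-L-KO cerebellum (0.14) is therefore not shown to differ between the regions (difference 0.13 ± 0.11, adjusted p = 0.437).

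Counts of Y-linked genes split each group into male and female libraries, 4 and 4, or 3 and 4 in the Cic-S-KO brain. The lung rise of the C1q genes in the Cic-S-KO was present within both: for C1qa the log2 fold change was 1.04 ± 0.181 in males (edgeR adjusted p = 0.0173) and 1.14 ± 0.186 in females (adjusted p = 0.0121). C1qa in the Cic-L-KO cortex was likewise 0.27 ± 0.0824 in males (adjusted p = 0.0184) and 0.27 ± 0.0674 in females (adjusted p = 0.00578). Csf1r and C1qc there passed among females (0.22 and 0.20, edgeR adjusted p = 0.0167 and 0.0277). Among males they did not (0.12 and 0.09, adjusted p = 0.216 and 0.404). Their male and female effects were not shown to differ (interaction, edgeR adjusted p = 0.879 and 0.886). P2ry12 was higher in male than in female cortex by 0.19 ± 0.0407 across genotypes (adjusted p = 0.0481), where 0.0884% of all genes differed by sex. Replicate numbers follow sex in the labels' order, so sex and the order of the numbers cannot be told apart.

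In the Cic-S-KO cerebellum, 7 of the 9 genes rose against WT among female libraries, against 7.24% of the 16707 genes tested there. Among male libraries edgeR called 0.0179% of all genes, and the adjusted p was 0.895 or higher for all 9. For Csf1r the log2 fold change from WT was 0.36 ± 0.0665 in females (adjusted p = 0.00188) and -0.11 ± 0.0797 in males (adjusted p = 0.926). For Cx3cr1 it was 0.52 ± 0.120 in females (adjusted p = 0.0086) and -0.09 ± 0.166 in males (adjusted p = 0.995). The male effect was below the female effect in all 9 genes. The interaction of genotype and sex, which edgeR tested across 16643 genes and called in 0.0781% of them, called 0 of the 9. At an unadjusted p under 0.05 there were 6, against 11% of all genes, the smallest for Csf1r (difference -0.48 ± 0.104, adjusted p = 0.0787). No other tool was run on this interaction. This split was examined after the data had been seen and rests on 3 male Cic-S-KO libraries. The male WT libraries include replicate 1, high for C1qa and Sall1, and the female Cic-S-KO libraries include replicate 6, high for Sall1. Neither the split nor the interaction was run without these libraries.

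Within a tissue, the genes could be followed from library to library. Correlations were computed over all libraries of a tissue after subtracting the genotype means from log2 CPM, and are descriptions of points that share a library, its depth and its dissection. In cerebellum all 36 pairs of the 9 genes were positive over 23 libraries, with Pearson's r from 0.30 to 0.82 and a median of 0.62. In cortex 35 of 36 were positive over 23 libraries, with a median of 0.50. The tightest were C1qa with C1qc (0.89) and Csf1r with C1qc (0.84), and the exception was Aif1 with C1qb (-0.01). Pairs of other genes were not computed, so whether these values set the 9 genes apart was not tested.

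In lung, 6 of the genes held together and 3 did not. Over 24 lung libraries, the 15 pairs among Cx3cr1, Aif1, Csf1r, C1qa, C1qb and C1qc ranged from 0.56 to 0.92, whereas the 21 pairs with Tmem119, P2ry12 or Sall1 ranged from -0.56 to 0.27. Those 3 did not go together either: r was -0.21 for P2ry12 with Tmem119, -0.12 for P2ry12 with Sall1 and 0.002 for Tmem119 with Sall1. Tmem119, abundant in lung, had an r of -0.19 with the mean of the other members there, against 0.46 in cortex and 0.69 in cerebellum. Sall1, at its low lung counts, had an r of -0.49 with the mean of the others.

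**Figure D4:**
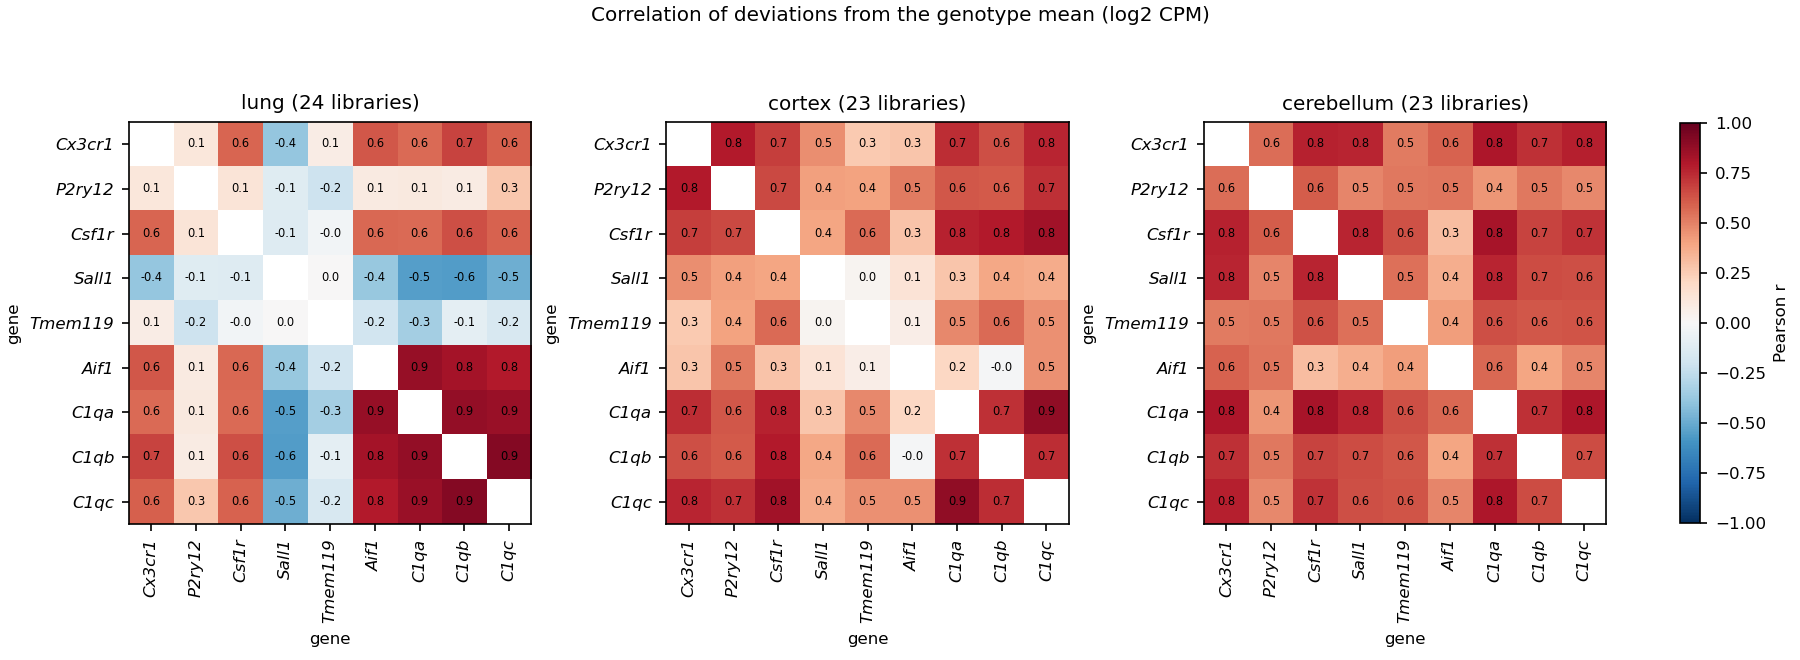
Pearson's r between the 9 genes (both axes) across the libraries of lung (24), cortex (23) and cerebellum (23), on log2 CPM after subtraction of genotype means; red is positive and blue negative. In lung the rows of P2ry12, Sall1 and Tmem119 stand apart, while in cerebellum all pairs are positive, from 0.30 to 0.82.

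The genes whose profile was most like the mean of the 9 differed between tissues. In lung they were Was (0.94), Hcls1 (0.93), Lair1 (0.92), Gm15931 (0.89) and Coro1a (0.88) over 24 libraries and 16686 genes. In cortex they were Axl (0.90), Hnrnpul1 (0.88), St6galnac6 (0.87) and Wdr13 (0.86), and in cerebellum Rell2 (0.91), Aktip (0.90), Rnd2 (0.89), Adcy5 (0.89) and B230209E15Rik (0.88), over 23 libraries each. Was, Hcls1 and Coro1a encode cytoskeletal and signalling proteins of blood cells. None of the cerebellum genes named here is on a list of microglia genes used above, whereas Axl is on that of activated microglia.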

How the data were processed

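Total RNA was extracted from flash-frozen tissue with a miRNeasy kit and sequenced as polyadenylated libraries, per the labels' protocols. STAR 2.7 and GRCm38.p6 are named in the submitters' processing notes. The counting program, its annotation and its strand setting are not given in the sources used here. The deposited table holds the authors' raw counts per gene, whole numbers under 50789 versioned identifiers, of which 50725 matched GENCODE M21 (GRCm38) when the version was ignored; Csf1r matched without its version. Every column was matched to 1 sample by name, and no 2 libraries were identical. The labels do not tie replicates to animals beyond separate samples, so p-values measure the spread between these samples.

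Counts were tested with edgeR 4.0.16 (R 4.3.3): filterByExpr, TMM, robust quasi-likelihood fits of the 3 genotypes per tissue and of 46 brain libraries together, with Benjamini-Hochberg adjusted p under 0.05 over all genes. CPM are TMM-scaled within a tissue. The fits were tested on simulated data first. Alternatives were DESeq2 1.42.0, RLE, no filter, a non-robust fit, the replicate block, sex, GC adjustment in 20 bins, 2 genotypes alone and leaving out each library. Named genes are the 9, up to 4 of smallest p per list and contrast, the 5 most correlated per tissue, and Cic. One gene that this rule names is not reported here. The members and lists were chosen with earlier results of these data known. Listed genes not found in the table were not analysed here.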

Additional observations from a re-analysis of the deposited data

Results flagged for a closer look

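Of 81 sets of values (9 genes in 9 groups), 5 had a library whose gap to its nearest neighbour was large for the range of its group, where chance flags about 1 in 20. In cerebellum WT, replicate 1 was high for C1qa (25.1 CPM, next 19.5) and Sall1 (15.5 CPM, next 11.02). In the Cic-S-KO cerebellum, replicate 6 was high for Sall1 (17.5 CPM, next 12.5). In the Cic-S-KO cortex, replicate 4 was high for Aif1 (5.62 CPM, next 4.54). In WT lung, replicate 3 was high for C1qb (23.8 CPM, next 17.5).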

How the results depend on the processing

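Counts of the 9 genes that passed moved as follows. For Cic-L-KO against WT in lung (4 genes), 2 passed without the low-count filter and 2 with GC adjustment. For Cic-L-KO against WT in cerebellum (1 gene), 2 passed with DESeq2 and 2 with a fit of the 2 compared genotypes alone. Between the knockouts in cerebellum (0 genes), 1 passed with DESeq2 and 1 with sex as a covariate. Male and female libraries were also fitted alone, a choice made after seeing the data. Percentages in brackets are the shares of all genes called in the same fit. Among males, 3 passed in Cic-S-KO lung (2.32%), 0 in the lung of the Cic-L-KO (0.372%) and 0 between the knockouts in lung (2.34%). Between the male knockouts, 0 passed in cortex (27.3%) and 1 in cerebellum (7.21%). The male Cic-L-KO cerebellum had 0 against WT (9.98%). With female libraries only, 0 passed in Cic-L-KO lung (1.07%) and 0 between the knockouts in lung (2.4%). In female cerebellum, 7 passed in the Cic-S-KO (14.5%) and 2 between the knockouts (8.25%). Each such subset holds fewer samples.

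Leaving out each library in turn gave 5 to 6 genes in Cic-S-KO lung, 2 to 4 in the lung of the Cic-L-KO, 2 to 3 between the knockouts in lung, 0 to 1 in Cic-S-KO cortex, 2 to 4 in Cic-L-KO cortex, 4 to 4 between the knockouts in cortex, 0 to 1 in Cic-S-KO cerebellum, 1 to 4 in Cic-L-KO cerebellum and 0 to 1 between the knockouts there. It gave 9 to 9 between WT regions, and 0 to 1 and 0 to 0 for the regional differences of the Cic-S-KO and Cic-L-KO effects. In Cic-S-KO cortex, C1qb passed without Cic-S-KO replicate 1 (adjusted p = 0.0446). In Cic-L-KO cortex, C1qb passed without WT replicate 4 or 5 or Cic-L-KO replicate 7 (adjusted p 0.0154 to 0.128 over 23 fits). Between the knockouts in cerebellum, P2ry12 passed without WT replicate 3 or Cic-L-KO replicate 4 (adjusted p 0.0319 to 0.137 over 23 fits).

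Some log2 fold changes that did not pass changed sign. With GC adjustment Tmem119 was -0.048 in Cic-S-KO lung and -0.052 in Cic-S-KO cortex, Sall1 was 0.022 between the knockouts in cortex, P2ry12 was 0.057 in Cic-L-KO cerebellum and -0.068 for the regional difference of the Cic-L-KO effect. P2ry12 in Cic-L-KO cortex was -0.000873 with DESeq2, -0.000975 with RLE scaling and -0.000627 without the filter, and Sall1 between the knockouts in cortex was 0.0045 without the filter. Further sign changes came from leaving out 1 library. For Cic-S-KO lung, these were Tmem119 (-0.0053 to 0.040). For Cic-L-KO lung, these were P2ry12 (-0.0054 to 0.14) and Sall1 (-0.093 to 0.15). For Cic-S-KO cortex, these were Cx3cr1 (-0.074 to 0.038), P2ry12 (-0.032 to 0.053), Tmem119 (-0.013 to 0.073) and Aif1 (-0.012 to 0.10). For Cic-L-KO cortex, these were P2ry12 (-0.019 to 0.044). For the 2 knockouts compared in cortex, these were P2ry12 (-0.032 to 0.035), Aif1 (-0.061 to 0.055) and Sall1 (-0.059 to 0.025). For Cic-L-KO cerebellum, these were P2ry12 (-0.070 to 0.015). For the 2 knockouts compared in cerebellum, these were Cx3cr1 (-0.079 to 0.068), C1qb (-0.13 to 0.022) and C1qc (-0.029 to 0.055). For the regional difference of the Cic-S-KO effect, these were Sall1 (-0.21 to 0.0088). For the regional difference of the Cic-L-KO effect, these were P2ry12 (-0.019 to 0.071), Tmem119 (-0.027 to 0.093), Aif1 (-0.16 to 0.041), C1qb (-0.071 to 0.0066) and C1qc (-0.082 to 0.018). The cause of these changes was not tested.

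Same-numbered cortex and cerebellum libraries had a mean correlation of 0.138 of their deviations, with 16 of 23 pairs over 0.1 and 10 best matched to their own number (6 of 7 in the Cic-S-KO). The labels do not say whether they share an animal, and since not every pair was over 0.1 the numbers were not treated as pairs. With the replicate block, 3 genes passed in Cic-L-KO lung, where Csf1r was lost (adjusted p = 0.0683), and 4 in Cic-L-KO cortex, where C1qb was gained (adjusted p = 0.0497). Cic-S-KO brain replicates 2 to 7 by title carry numbers 3 to 8 in the library names. The block used the titles, and so set the female Cic-S-KO replicate 4 beside male replicates 4 of the other genotypes. A replicate block by library number, chosen after seeing the data, gave 4 genes in Cic-L-KO cortex (C1qb, adjusted p = 0.0458) and changed the sign of Cx3cr1 (-0.00049) and C1qc (-0.0077) between the knockouts in cerebellum, with 1121 genes called in Cic-S-KO cortex and 1001 in Cic-S-KO cerebellum. Under the block by title, Cx3cr1 (-0.015) and C1qc (-0.0067) changed sign between the knockouts in cerebellum. The number of all genes called in Cic-S-KO cortex was 1108, against 627 with the block, 399 with GC adjustment, 654 with 2 genotypes alone and 732 without the filter. It was 1370 against 591 with the block in Cic-S-KO cerebellum, 817 against 1285 with the block in Cic-L-KO lung, and 812 against 446 without the filter for the regional difference of the Cic-S-KO effect. Depth limits Sall1 in lung, at 2 to 36 counts per library.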
